A study of Fragaria vesca with 12 samples.

Results

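The change of N6-methyladenosine (m6A) between fruit of the Fvalkbh10b mutant and fruit of the wild type (WT) was described peak by peak in the woodland strawberry Fragaria vesca. A peak is a stretch of a transcript that an antibody against m6A enriches, and its level is the log2 ratio of immunoprecipitated RNA (IP) over input RNA, a value computed by the authors. Peaks of the Fvalkbh10b list and of the WT list were paired where they shared at least 1 bp on one strand of one gene, and the difference of the log2 ratios was taken as Fvalkbh10b minus WT. This gave 20629 pairs in 12951 of the 15662 genes with a peak in either list. The pairs took up 19719 of 24868 Fvalkbh10b peaks (79.3%) and 19712 of 23966 WT peaks (82.2%). The authors' deposited table of differential peaks, which holds the only test of the m6A change between genotypes, added 8889 listed peaks.

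The 12 libraries were Fvalkbh10b IP, Fvalkbh10b input, WT IP and WT input, with 3 of each, all from fruit of diploid strawberry taken 27 days post anthesis. The labels name the mutant Fvalkbh10b and do not give its allele, its number of independent lines or its parent line. The series design calls the replicates independent biological ones. Each genotype has 1 peak list made over its 3 replicates, so an enrichment is 1 value per genotype with no replicate spread, and no test of the pair differences over samples was possible.

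The methyl group of m6A is placed on mRNA by a complex of the methyltransferases MTA and MTB with partners such as FIP37 and Hakai, is bound by proteins with a YTH domain, and is taken off by some dioxygenases of the AlkB family. In Arabidopsis, ALKBH10B is such a demethylase of mRNA and acts in the transition to flowering. In plant transcripts m6A is most often found near the stop codon and in the 3' untranslated region (UTR), and in fleshy fruit the mark changes during ripening.

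ALKBH10B appears in none of the gene descriptions. The gene FvH4_2g24110 (Fvb2, 19702086 to 19706888, plus strand), described as uncharacterized, carries the annotation of an RNA N6-methyladenosine dioxygenase. Input RNA of FvH4_2g24110 came to 3.75, 3.84 and 5.34 FPKM in Fvalkbh10b, against 30.3, 28.5 and 31.0 FPKM in WT, so the groups did not overlap (log2 change -2.55 ± 0.11, SE, n = 3 per genotype, limma adjusted p = 3.01e-08). The labels do not say whether it is the mutated gene. Its paired 3' UTR peak stood at a log2 enrichment of 2.73 in Fvalkbh10b and 2.83 in WT, a difference of -0.10. The gene has 2 peaks in the Fvalkbh10b list and 1 in the WT list, so 1 Fvalkbh10b peak has no partner. It has no entry in the authors' deposited table of differential peaks.

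The input libraries summed to between 467174 and 522590 FPKM, and FPKM give no read numbers, so the depth is unknown. Across genes, the lowest Pearson correlation between libraries of 1 genotype was 0.988 and the highest between genotypes was 0.812. Green tissue markers (37 genes, 0 of them at 0 in all libraries) summed to 2818, 3013 and 2957 FPKM in the Fvalkbh10b libraries, against 301, 288 and 304 FPKM in the WT libraries. Markers of achenes, the seed-bearing fruits on the strawberry surface (39 genes), summed to 505, 492 and 472 FPKM in Fvalkbh10b, against 716, 730 and 716 FPKM in WT. Markers of lignified vascular tissue (38 genes) summed to 98.8, 96.1 and 94.8 FPKM in Fvalkbh10b, against 69.3, 64.2 and 66.8 FPKM in WT. In whole fruit, fewer cells of a type and less RNA per cell cannot be told apart, and the part of these shifts in the m6A differences was not tested.

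Most pairs stood higher in Fvalkbh10b, by a small step. The median difference of all 20629 pairs was 0.09 log2 units, with quartiles of -0.12 and 0.28 and an SD over pairs of 0.511. The difference was above 0 in 12649 pairs (61.3%), below 0 in 7735 (37.5%) and 0 in 245. Large differences were rare and nearly balanced, with 601 pairs at least 2-fold higher and 571 at least 2-fold lower, in a range of -5.08 to 4.30. On the 7 chromosomes the median lay between 0.07 and 0.10.

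The step differed between parts of the transcript. Among the 19506 pairs whose peaks carry the same annotation class in both lists, the 2694 pairs in the 5' UTR had a median difference of 0.14, and 70.8% of them were higher in Fvalkbh10b. The 4567 pairs in coding exons had a median of 0.13, with 67.2% higher. The 12245 pairs in the 3' UTR, where enrichment is strongest, had a median of 0.05, with 57.2% higher. Median enrichment in the 3' UTR was 3.12 in Fvalkbh10b and 3.09 in WT. In coding exons it was 1.64 in Fvalkbh10b and 1.51 in WT, and in the 5' UTR 1.5 in Fvalkbh10b and 1.38 in WT. The order of the 3 classes was the same over the 4181 pairs with identical bounds in both lists, with medians of 0.15 in the 5' UTR, 0.10 in coding exons and 0.04 in the 3' UTR. Pairs whose class differed between the lists (1123) spread widest, with an SD of 1.04.

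**Figure D1:**
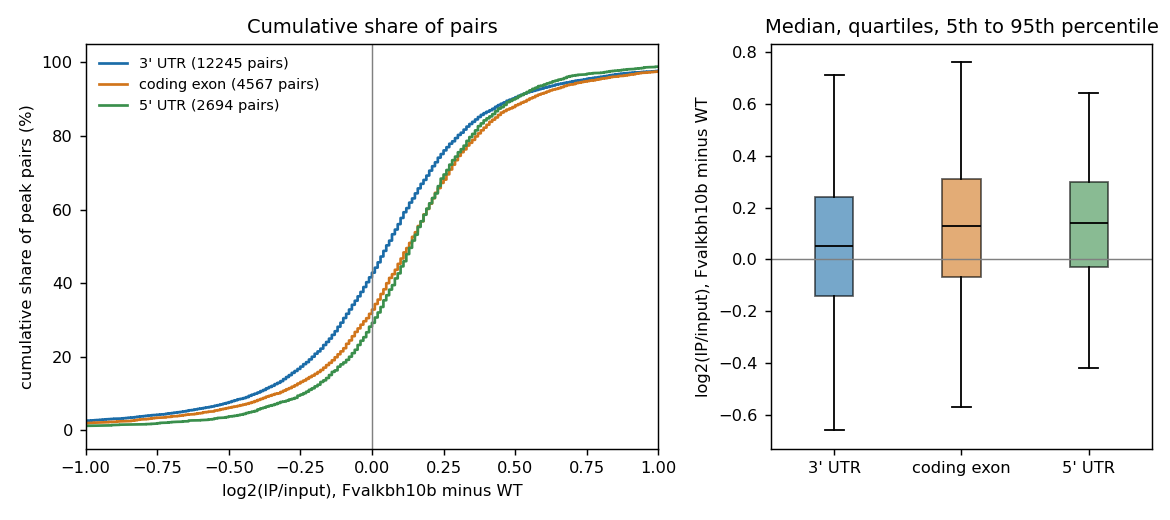
Difference of log2(IP/input), Fvalkbh10b minus WT, of peak pairs in the 3' UTR (12245), coding exons (4567) and the 5' UTR (2694). The left panel gives the cumulative share of pairs, and the right panel the median (line), quartiles (box) and 5th to 95th percentile (whiskers) over pairs, which are not replicates; the 3' UTR median of 0.05 lies lowest.

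Inside genes the 3' UTR difference was again more often the smaller one, while the 5' UTR and coding exons did not keep their order. Of 1934 genes with pairs in both UTRs, the 5' UTR difference exceeded the 3' UTR difference in 1130 and fell short of it in 787, with medians of 0.14 and 0.06. Of 1568 genes with pairs in a coding exon and the 3' UTR, the exon difference was the larger in 978 and the smaller in 577, with medians of 0.14 and 0.04. Between the 5' UTR and coding exons of 481 genes the split was 235 against 244, with medians of 0.14 and 0.16. No test was made, since both values of a gene come from the same pooled libraries.

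Over all pairs, the difference was smaller where enrichment was stronger, from 1 log2 unit upward. Over the mean of both enrichments of a pair, the median difference was 0.11 at 0 to 1 log2 units (744 pairs), 0.13 at 1 to 2 (6311 pairs), 0.08 at 2 to 3 (6262 pairs), 0.05 at 3 to 4 (5453 pairs) and 0.03 at 4 and over (1859 pairs). The medians of the single classes did not all follow this order. At 2 to 3 log2 units the median was 0.20 in the 5' UTR (408 pairs), 0.13 in coding exons (1017 pairs) and 0.06 in the 3' UTR (4381 pairs). At 3 to 4 it was 0.17, 0.12 and 0.05 in the same order of classes, while at 1 to 2 it was 0.13, 0.13 and 0.09. At 4 and over, the 103 exon pairs had a median of -0.03, the lowest of the 3 classes.

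**Figure D2:**
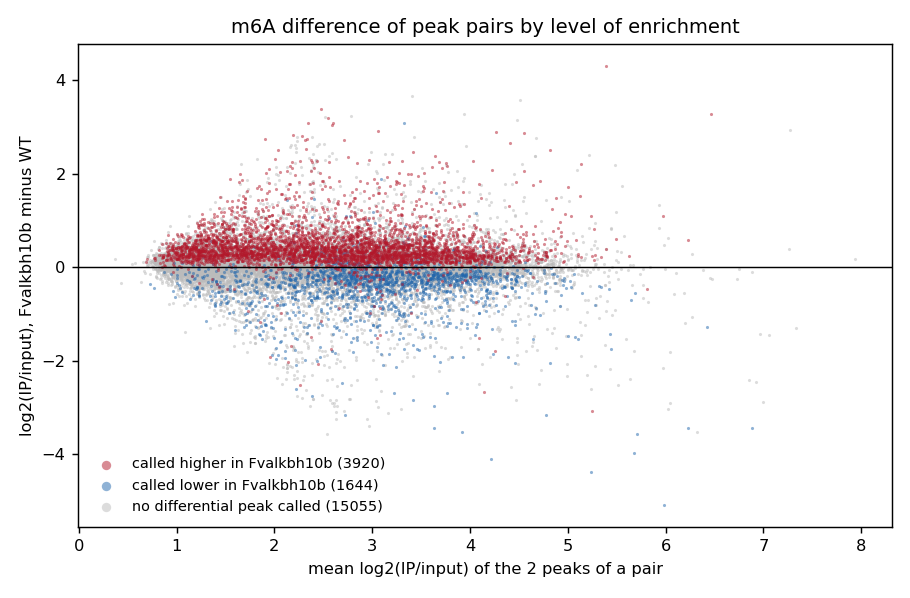
Difference of log2(IP/input), Fvalkbh10b minus WT, against the mean log2(IP/input) of both peaks, 1 point per pair. Red points lie under a differential peak called higher in Fvalkbh10b (3920), blue points under one called lower (1644) and grey points under neither (15055); 10 pairs under peaks called both ways are left out, and the blue points gather at enrichments above 2.

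The bounds of the peaks moved with the difference. Where the Fvalkbh10b peak was over 2 times as long as its WT partner (1865 pairs), the median difference was 0.31 and 302 pairs were at least 2-fold higher. Where it was under 50% of the partner's length (1910 pairs), the median was -0.11 and 247 pairs were at least 2-fold lower. The 16854 pairs with lengths within 2-fold had a median of 0.09. Among pairs with identical bounds only 19 were at least 2-fold higher and 27 at least 2-fold lower, so most of the largest pair differences belong to peaks drawn differently in the lists. The part of the drawing in them was not tested.

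Of the 8889 peaks in the authors' deposited table, 6275 had an adjusted p under 0.05 and count as called. Of these, 4325 in 3753 genes were higher in Fvalkbh10b and 1950 in 1778 genes were lower. Of all genes with a peak, 24.0% held a peak called higher and 11.4% a peak called lower, and 215 genes held both kinds. Of all pairs, 19.1% lay under a peak called higher and 8.02% under one called lower. By the authors' deposited table, called changes were at least 2-fold in 710 higher and 449 lower peaks. The adjusted p are deposited with 2 decimals, and no source used here gives the test behind them.

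Called losses were mostly 3' UTR peaks. In the authors' deposited table, called peaks were split 2437 higher against 1468 lower in the 3' UTR (62.4% higher). Coding exons had 1285 higher against 341 lower (79.0% higher), and the 5' UTR had 603 against 141 (81.1% higher). Of the pairs, 1361 of 12245 in the 3' UTR (11.1%) lay under a peak called lower only, against 155 of 4567 in coding exons (3.39%) and 69 of 2694 in the 5' UTR (2.56%). The shares under a peak called higher only were 18.8%, 19.7% and 16.9% in the same order. Pairs with no called peak also had medians above 0, at 0.10 in the 5' UTR, 0.07 in coding exons and 0.03 in the 3' UTR.

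A part of the called peaks was listed in 1 genotype alone. In the authors' deposited table, 523 peaks called higher and 32 called lower overlap a peak of the Fvalkbh10b list and none of the WT list, with a median change of 1.32 for the higher ones. A further 292 called lower and 17 called higher overlap a peak of the WT list alone, with a median of -1.27 for the lower ones. On peaks of both lists the numbers were 3775 called higher and 1604 called lower.

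The change in the authors' deposited table and the pair difference had the same sign for 5079 of the 5362 called peaks on a pair with values other than 0, and opposite signs for 283. On the 807 called peaks with the same bounds in all 3 tables, 804 changes were within 0.1 of the pair difference and 0 of them had the opposite sign. On the 4570 others, 51.7% were within 0.1, and the widest gap was 5.13 log2 units. Both values are therefore given for the genes named here.

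Many genes held several called peaks. Of 5327 genes with at least 2 pairs, 1797 (33.7%) had every pair higher in Fvalkbh10b, 651 (12.2%) every pair lower and 2757 (51.8%) pairs in both directions. Of 841 genes with at least 2 called peaks, all were higher in 479, all lower in 147 and split in 215. In 54 genes at least 3 peaks were called and all of them were higher.

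The share of genes with a called peak grew with the amount of input RNA. By mean input over the 6 libraries, a peak was called higher in 8.81% of the 1804 genes under 1 FPKM, 15.3% of the 4161 genes at 1 to 5, 25% of the 5794 genes at 5 to 20, 38.8% of the 3057 genes at 20 to 100 and 52.2% of the 563 genes at 100 FPKM and over. The shares with a peak called lower were 3.99%, 10.3%, 11.5%, 15.8% and 18.8% along the same ranges. The median difference changed less, with 0.04, 0.06, 0.08, 0.09 and 0.10. The quartiles drew together, with -0.39 and 0.47 in the lowest range and -0.01 and 0.22 in the highest. Over the gene lists described here, the median input ran between 0.907 FPKM for MADS-box factors and 111 FPKM for cytosolic ribosomal proteins, against 7.64 FPKM over all genes with a peak.

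**Figure D3:**
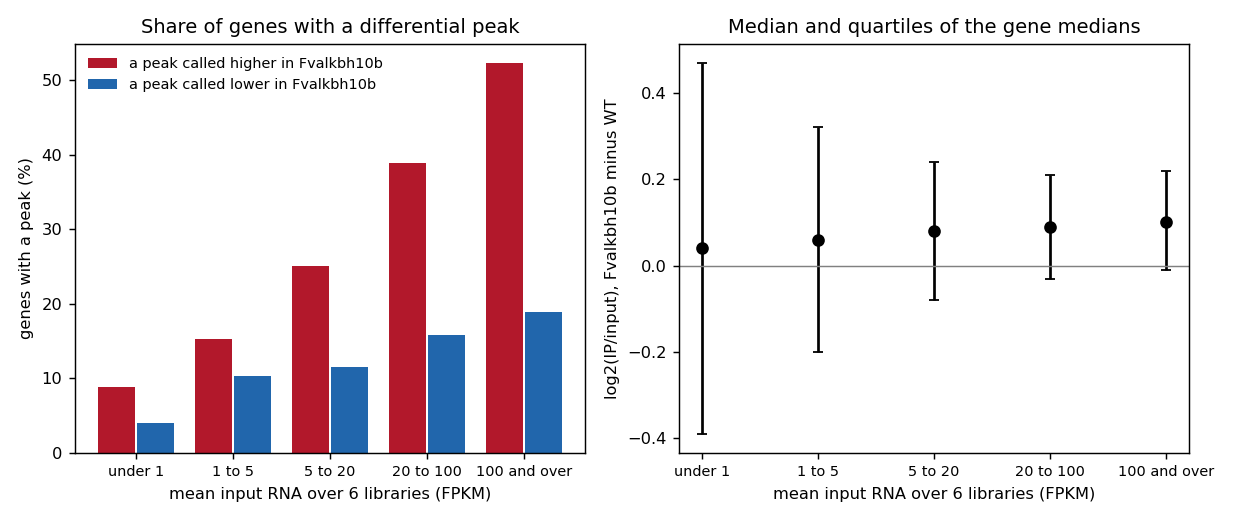
Left, the percent of genes with a peak that hold one called higher (red) or lower (blue) in Fvalkbh10b, by mean input RNA over 6 libraries in FPKM. Right, the median (point) and quartiles (bars) over genes of the median log2(IP/input) difference per gene, Fvalkbh10b minus WT; shares of genes with a peak called higher run between 8.81% and 52.2% while medians stay between 0.04 and 0.10.

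Input RNA of many genes differed as well. Of 15571 genes tested with limma on log2(FPKM + 1), 48.3% were higher in Fvalkbh10b (7527 genes) and 19.1% lower (2978 genes) at an adjusted p under 0.05. Over all tested genes the log2 change had a median of 0.25. After each library was rescaled to one median, 4800 were higher and 5011 lower, and with quantile normalization 4869 and 4625. The m6A ratio has these same 6 input libraries as its denominator, so the m6A change and the input change share their samples, and no relation is read between them. Of the 3354 tested genes with peaks called higher only, input RNA was higher in 1189 and lower in 1041 (median log2 change 0.04; 603 and 1661 after rescaling). Of the 1473 with peaks called lower only, it was higher in 952 and lower in 116 (median 0.41; 645 and 292 after rescaling). Of the 8536 without a called peak, it was higher in 4345 and lower in 1292 (median 0.29; 2810 and 2342 after rescaling).

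Of the 10 genes of the m6A machinery, 9 had a peak and a pair, with a median difference of -0.02, against 0.08 over all genes with a pair. A peak was called higher in 3 of the 9 and lower in 0, against 24.0% and 11.4% of all genes with a peak. The methyltransferase gene MT-A70-like (FvH4_5g11050), the homolog of MTA, had a coding exon peak at 2.72 in Fvalkbh10b and 2.33 in WT. This peak rose by 0.46 in the authors' deposited table (adjusted p listed as 0.00). A 3' UTR peak of the same gene is listed there with a change of -0.39 and was not called (adjusted p 0.1). The 5' UTR peak of methyltransferase-like protein 1 (FvH4_1g22240) stood at 3.13 in Fvalkbh10b and 2.91 in WT and rose by 0.28 in the authors' deposited table (adjusted p listed as 0.00). The 30-kDa cleavage and polyadenylation specificity factor 30 (FvH4_3g09980), whose Arabidopsis homolog has a form that reads m6A, had a 3' UTR peak at 3.44 in Fvalkbh10b and 3.01 in WT. It rose by 0.32 in the authors' deposited table (adjusted p 0.03), while its 4 other pairs, without a call, had differences of -0.13 to 0.17.

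No peak was called in the remaining 6 machinery genes with a pair. FIP37 (FvH4_5g05840), the partner of the methyltransferases, had a 3' UTR peak at 3.86 in Fvalkbh10b and 3.98 in WT. The peak of Hakai (FvH4_6g12190), a ubiquitin ligase of the writer complex, stood at 1.69 in Fvalkbh10b and 1.81 in WT. Among genes with a YTH domain, which binds m6A, YTH domain-containing protein 1 (FvH4_5g01140) carried one of the strongest enrichments of the list, at 5.29 in Fvalkbh10b and 5.32 in WT. YTH domain-containing family protein 2 (FvH4_3g13840) had 2.90 in Fvalkbh10b and 3.13 in WT, a difference of -0.23. The alkB list, of genes of the AlkB family, had 7 genes with a pair and a median of 0.08. A peak was called higher in 0 of the 7 and lower in 1 (14.3%), against 24.0% and 11.4% of all genes with a peak. That one was an alkB homolog 8 gene (FvH4_5g24670), with a coding exon peak of the WT list that fell by 0.66 in the authors' deposited table (adjusted p 0.02). The gene described as RNA demethylase ALKBH5 (FvH4_1g11920) had differences of -0.17 in the 3' UTR and 0.21 in a coding exon, with no called peak.

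MADS-box transcription factors, which set floral and fruit identity, had 15 genes with a peak and 9 with a pair. The median difference was 0.40, with wide quartiles of -0.245 and 0.415 and a range of -1.91 to 1.30, and 6 genes lay above and 3 below 0. A peak was called higher in 3 of the 15 (20%) and lower in 1 (6.67%), both under the shares of all genes, 24.0% and 11.4%. The AGL9 homolog (FvH4_4g23530, on Fvb4, 25998776 to 26004694, plus strand) is of the SEPALLATA group, which acts in floral organs and, in tomato and strawberry, in ripening. It was one of the 54 genes with at least 3 called peaks, all of them higher. Its 5' UTR peak (25998826 to 25999375 in Fvalkbh10b) stood at 3.41 in Fvalkbh10b and 3.01 in WT. Its coding exon peak (26000551 to 26002633 in Fvalkbh10b) stood at 1.74 in Fvalkbh10b and 1.52 in WT, and its 3' UTR peak (26003484 to 26004571 in both lists) at 3.66 in Fvalkbh10b and 3.06 in WT. In the authors' deposited table these 3 peaks rose by 0.42, 0.24 and 0.60 (adjusted p listed as 0.00 for each). The input level was 53.2, 53.1 and 50.3 FPKM in Fvalkbh10b, against 181, 183 and 192 FPKM in WT. The input groups did not overlap (log2 change -1.81 ± 0.04, SE, limma adjusted p = 3.38e-10), and an exact permutation test over 3 and 3 libraries cannot go below 0.1.

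**Figure D4:**
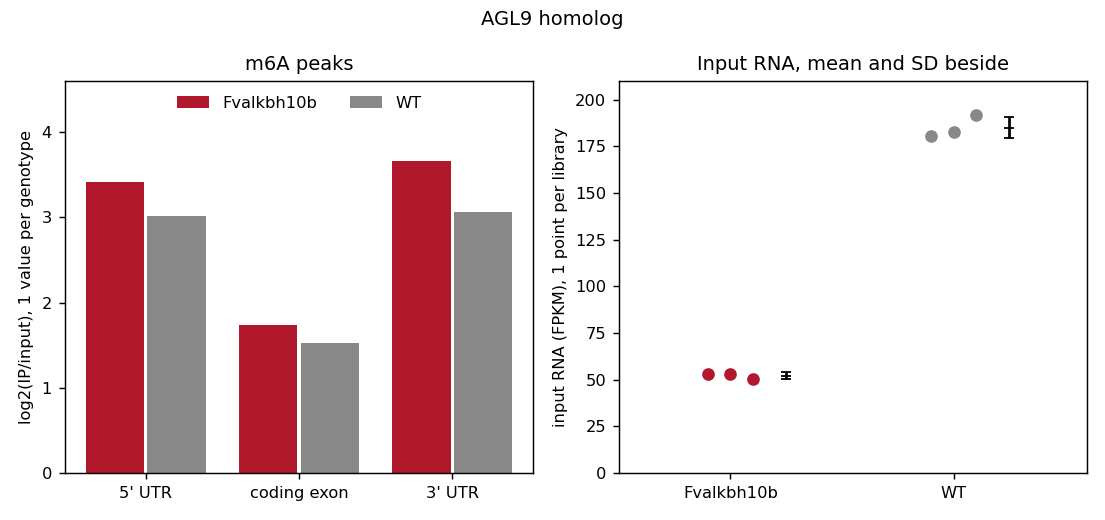
The AGL9 homolog. Left, log2(IP/input) of its peaks in the 5' UTR, a coding exon and the 3' UTR, with 1 value per genotype and no replicate spread, Fvalkbh10b in red and WT in grey. Right, input RNA in FPKM with 1 point per library and the mean ± SD beside (n = 3); all 3 peaks are higher and all 3 input libraries lower in Fvalkbh10b.

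Other MADS-box genes moved in both directions of input RNA. The 3' UTR peak of PMADS 1 (FvH4_2g38970), a homolog of a petunia floral homeotic gene, stood at 3.01 in Fvalkbh10b, where it covers 2 peaks of the WT list at 1.49 and 1.93, and rose by 2.04 in the authors' deposited table (adjusted p listed as 0.00). Input RNA of the gene was 2.22, 2.69 and 2.91 FPKM in Fvalkbh10b, against 5.89, 6.27 and 5.87 FPKM in WT. CMB1-like (FvH4_5g13510) also had 2 peaks called higher, with changes of 0.19 in the 3' UTR and 1.12 in the 5' UTR in the authors' deposited table, and its input RNA was 46.9, 45.6 and 48.8 FPKM in Fvalkbh10b, against 11.7, 14.9 and 13.8 FPKM in WT. The called loss was the 3' UTR peak of MADS-box transcription factor 6 (FvH4_7g12670), at 3.30 in Fvalkbh10b and 3.57 in WT, with a fall by 0.25 in the authors' deposited table (adjusted p 0.04). SEPALLATA 1 (FvH4_6g46420) had no called peak, with differences of -0.44 and -0.05.

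Genes of abscisic acid, the hormone that promotes strawberry ripening, had 16 members with a peak and 12 with a pair. A peak was called higher in 6 (37.5%) and lower in 4 (25%), against 24.0% and 11.4% of all genes with a peak. The median input of the list was 6.58 FPKM, and the median difference was 0.04. The bZIP factor gene ABSCISIC ACID-INSENSITIVE 5-like protein 5 (FvH4_2g34330) had 2 peaks called higher, at 3.67 in Fvalkbh10b and 3.29 in WT in the 3' UTR and at 3.23 in Fvalkbh10b and 2.78 in WT in a coding exon. Input libraries gave 37.8, 37.2 and 34.2 FPKM in Fvalkbh10b, against 37.2, 36.3 and 40.2 FPKM in WT, with overlapping groups and no call in limma (adjusted p = 0.422), though it was called lower after rescaling (log2 change -0.33, limma adjusted p = 0.0013) and with quantile normalization (-0.18, limma adjusted p = 0.031). SRK2I (FvH4_1g15440), a kinase of the hormone's signalling, had identical bounds in both lists and 2 peaks called higher, with differences of 0.30 in the 3' UTR and 0.26 in a coding exon. The receptor gene PYL8 (FvH4_7g31130) had a 3' UTR peak at 2.86 in Fvalkbh10b and 2.47 in WT, which rose by 0.41 in the authors' deposited table (adjusted p listed as 0.00). PYL8 input RNA, at 23.4, 22.6 and 24.9 FPKM in Fvalkbh10b, against 22.5, 21.3 and 25.4 FPKM in WT, overlapped between the genotypes, and was called lower after rescaling alone (log2 change -0.24, limma adjusted p = 0.019).

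The 4 with a peak called lower included genes of synthesis and breakdown. Abscisic-aldehyde oxidase (FvH4_3g26980), the last enzyme of synthesis, had a 3' UTR peak at 4.24 in Fvalkbh10b and 5.11 in WT, which fell by 0.96 in the authors' deposited table (adjusted p 0.01). An abscisic acid 8'-hydroxylase 3-like gene (FvH4_2g14100), of the enzymes that break the hormone down, had the widest difference of the list, at 3.05 in Fvalkbh10b and 7.42 in WT. Its peak fell by 4.17 in the authors' deposited table, and the gene has no FPKM value. ABSCISIC ACID-INSENSITIVE 5-like protein 2 (FvH4_7g04850) had peaks called both ways, -0.48 in the 3' UTR and 0.41 in a coding exon in the authors' deposited table. The synthesis gene NCED1 (FvH4_3g05440) had no called peak, with a coding exon peak at 1.83 in Fvalkbh10b and 1.77 in WT. Its input RNA was 67.7, 58.8 and 59.0 FPKM in Fvalkbh10b, against 128, 124 and 120 FPKM in WT.

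The other hormone lists showed called peaks in both directions. Of 52 auxin genes with a peak, 12 (23.1%) held one called higher and 10 (19.2%) one called lower, against 24.0% and 11.4% of all genes. The median difference was 0.04 over 43 genes. Auxin response factor 18 (FvH4_7g16840) changed in both directions: its coding exon peak stood at 1.08 in Fvalkbh10b and 1.82 in WT and fell by 0.94 in the authors' deposited table, while its 3' UTR peak stood at 3.40 in Fvalkbh10b and 2.81 in WT and rose by 0.57 in the authors' deposited table. The input level was 25, 23.6 and 23.1 FPKM in Fvalkbh10b, against 1.76, 1.61 and 1.53 FPKM in WT. ILR1-like (FvH4_6g19700), which frees auxin from its amino acid conjugates, had a 3' UTR peak at 2.77 in Fvalkbh10b and 2.13 in WT, with a rise by 0.73 in the authors' deposited table. The auxin repressor gene IAA27 (FvH4_1g05630) fell by 1.0 in the authors' deposited table (adjusted p 0.04), while its pair difference was 0.10.

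Of 56 ethylene genes with a peak, 9 (16.1%) held one called higher and 7 (12.5%) one called lower, against 24.0% and 11.4% of all genes. The median was 0.12 over 33 genes. Ethylene receptor 2 (FvH4_4g03030) had a 3' UTR peak at 2.76 in Fvalkbh10b and 2.01 in WT, and it rose by 0.86 in the authors' deposited table (adjusted p listed as 0.00). Input RNA of the gene was 17.7, 17.5 and 16.5 FPKM in Fvalkbh10b, against 52.7, 53.7 and 54.0 FPKM in WT. The 5' UTR peak of WRI1 (FvH4_7g04950), a factor of oil synthesis in Arabidopsis that the word pattern took in by its family name, rose by 1.04 in the authors' deposited table (adjusted p 0.01). A 1-aminocyclopropane-1-carboxylate oxidase homolog 11-like gene (FvH4_4g03310) had a 3' UTR peak at 1.81 in Fvalkbh10b and 2.67 in WT, and it fell by 1.62 in the authors' deposited table. Of 12 gibberellin genes with a peak, 1 (8.33%) held one called higher and 0 one called lower, with a median of 0.07 over 6 genes.

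Enzymes of ripening were called higher more often than lower, as were all genes. Of all genes with a peak, 24.0% held one called higher and 11.4% one called lower. Of 102 pectin and cell wall genes with a peak, 18 (17.65%) held one called higher and 6 (5.88%) one called lower, both under these shares. Their median difference was 0.09, at a median input of 7.69 FPKM. Beta-galactosidase 3 (FvH4_1g12350), of a family that trims wall polysaccharides, had a 3' UTR peak at 2.83 in Fvalkbh10b and 2.00 in WT, with a rise by 1.04 in the authors' deposited table. Input libraries gave 39.5, 37.6 and 37.8 FPKM in Fvalkbh10b, against 131, 133 and 137 FPKM in WT. A polygalacturonase gene (FvH4_5g03040), which cuts pectin, rose by 1.0 in the authors' deposited table. Its input RNA was 14.4, 15.1 and 15.0 FPKM in Fvalkbh10b, against 3.87, 1.73 and 2.64 FPKM in WT, so it was higher in Fvalkbh10b where that of beta-galactosidase 3 was lower.

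Of 49 flavonoid and anthocyanin genes with a peak, 7 (14.3%) held one called higher and 2 (4.08%) one called lower. Both lay under the shares of all genes, 24.0% and 11.4%. The median difference was 0.19 over 33 genes. Anthocyanidin 3-O-glucosyltransferase 2 (FvH4_7g33840), which makes the red pigment stable by adding a sugar, had a 3' UTR peak at 2.36 in Fvalkbh10b and 1.5 in WT, with a rise by 0.90 in the authors' deposited table (adjusted p 0.02). The input level was 1.36, 1.52 and 0.91 FPKM in Fvalkbh10b, against 149, 142 and 146 FPKM in WT, so the groups did not overlap. Leucoanthocyanidin dioxygenase (FvH4_5g01170), the step before it, rose by 0.42 in the authors' deposited table, while its pair difference was 0.01.

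Of 66 sucrose and sugar genes with a peak, 17 (25.8%) held one called higher and 9 (13.6%) one called lower (median difference 0.10). Both lay near the shares of all genes, 24.0% and 11.4%. Sugar transport protein 13 (FvH4_4g15150), a carrier of hexoses, had a 3' UTR peak at 3.47 in Fvalkbh10b and 2.67 in WT, with a rise by 1.63 in the authors' deposited table. Input RNA of the gene was 6.13, 5.62 and 4.80 FPKM in Fvalkbh10b, against 68.2, 67.7 and 70.1 FPKM in WT. ERD6-like 7 (FvH4_2g24280), a further sugar transporter gene, rose by 0.90 in the authors' deposited table. Of 44 acyltransferase and aroma genes with a peak, 10 (22.7%) held one called higher and 2 (4.5%) one called lower (median difference 0.05). The share called higher lay near that of all genes, and the share called lower lay under it. Pyruvate decarboxylase 2 (FvH4_6g11100), on the route to volatile esters, had 2 3' UTR peaks called higher, with changes of 0.68 and 1.0 in the authors' deposited table, and pair differences of 0.45, -0.68 and 0.16 where peaks were split differently in the lists.

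Lists of other transcription factors lay near or under the share of all genes for higher calls (24.0%), except WRKY factors. For lower calls the share of all genes was 11.4%. Of 32 WRKY genes with a peak, 10 (31.25%) held one called higher and 3 (9.4%) one called lower, with a median difference of 0.14. WRKY factor 11 (FvH4_4g06830) had a 3' UTR peak at 3.12 in Fvalkbh10b that covers WT peaks at 2.92 and 1.87, and the stretch of the second rose by 1.35 in the authors' deposited table. WRKY factor 57 (FvH4_4g30360) had a 3' UTR peak that fell by 1.58 in the authors' deposited table. Of 34 NAC genes with a peak, 2 (5.9%) held one called higher and 3 (8.8%) one called lower. All 3 genes named by rule were described as NAC domain-containing protein 78 or 78-like. Their changes were -0.72 (FvH4_2g13320), 0.27 (FvH4_2g13330) and 0.23 (FvH4_7g06501) in the authors' deposited table. Of 28 MYB genes with a peak, 6 (21.4%) held one called higher and 2 (7.1%) one called lower (median 0.16). The repressor gene MYB6 (FvH4_5g32320) rose by 0.43 in the authors' deposited table, with identical lengths of 525 bp in both lists and enrichments of 2.04 in Fvalkbh10b and 1.63 in WT. Of 45 bHLH genes with a peak, 7 (15.6%) held one called higher and 7 (15.6%) one called lower, and the median difference was 0.01.

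Every achene and seed storage gene with a pair lay above 0. Of 39 genes listed, 21 had a peak and 11 a pair, and the 11 differences ran between 0.12 and 1.17, with a median of 0.35. A peak was called higher in 7 of the 21 (33.3%, against 24.0% of all genes) and lower in 0 (against 11.4%), at a median input of 4.69 FPKM. Members of these families are near copies of each other and may share reads, so the value of a single copy is uncertain. Legumin A-like (FvH4_2g21430), a seed storage globulin, had a 3' UTR peak at 2.38 in Fvalkbh10b that covers a WT peak at 1.01, and rose by 2.12 in the authors' deposited table. Oleosin S1-2 (FvH4_3g41901), a protein of oil bodies, had the same bounds in both lists, with 3.19 in Fvalkbh10b and 2.53 in WT, and rose by 0.69 in the authors' deposited table. A vicilin-like gene (FvH4_1g13730) stood at 4.13 in Fvalkbh10b and 3.59 in WT and rose by 0.41 in the authors' deposited table.

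Input RNA of achene and seed storage genes moved in both directions. Of 23 tested in limma, 6 were higher and 14 lower in Fvalkbh10b (4 and 15 after rescaling). The vicilin-like gene FvH4_1g13730 had input RNA of 3.16, 2.93 and 3.03 FPKM in Fvalkbh10b, against 28.2, 29.6 and 26.3 FPKM in WT. Legumin B-like (FvH4_3g19080), whose coding exon peak stood at 1.56 in Fvalkbh10b and 1.21 in WT and was called higher, had 108, 94.8 and 89.9 FPKM in Fvalkbh10b, against 21.8, 21.0 and 24.4 FPKM in WT.

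The list of photosynthesis genes had the opposite balance. Of 37 with a peak, at a median input of 33.2 FPKM, 2 (5.4%) held one called higher and 7 (18.9%) one called lower. The shares over all genes with a peak were 24.0% and 11.4%. The median difference over 24 genes was -0.09, with 9 above and 15 below 0. Input RNA of the list was higher in Fvalkbh10b in 41 of 43 tested genes and lower in 2 (limma; 39 and 2 after rescaling), with a median log2 change of 3.46. The 3' UTR peak of photosystem I subunit VI (FvH4_6g31740) stood at 1.78 in Fvalkbh10b and 2.80 in WT and fell by 1.07 in the authors' deposited table (adjusted p listed as 0.00). Input libraries gave 58.5, 60.7 and 72.6 FPKM in Fvalkbh10b, against 2.61, 2.45 and 2.27 FPKM in WT. Chlorophyll a-b binding protein CP26 (FvH4_3g17050), an antenna protein of photosystem II, fell by 0.64 in the authors' deposited table, with a pair difference of -0.21. Chlorophyll a-b binding protein P4 (FvH4_5g14770) fell by 2.05 in the authors' deposited table, while its pair difference was 0.41. The list of green tissue markers, which shares these antenna and photosystem genes, gave 2 genes with a peak called higher and 4 with one called lower of 25 with a peak, and a median of -0.10. Lignified vascular tissue gave 2 and 2 of 21, with a median of 0.06 over 11 genes.

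Lists with a high input level also had many calls. Of 143 cytosolic ribosomal protein genes with a peak, 63 (44.1%) held one called higher and 28 (19.6%) one called lower. Their median input was 111 FPKM and their median difference 0.07. The shares were 24.0% and 11.4% of all genes with a peak, and 52.2% and 18.8% of those at 100 FPKM and over. Of 47 proteasome genes, at a median input of 50.9 FPKM, 17 (36.2%) held one called higher and 2 (4.3%) one called lower. Among all genes with a peak at 20 to 100 FPKM, the shares were 38.8% and 15.8%. Proteasome subunit beta type-3-A (FvH4_2g27460), a part of the core particle, had a 3' UTR peak at 3.88 in Fvalkbh10b and 3.02 in WT, with a rise by 0.96 in the authors' deposited table. Its input RNA was 60.5, 62.4 and 62.6 FPKM in Fvalkbh10b, against 184, 180 and 181 FPKM in WT. A proteasome inhibitor gene (FvH4_6g12740) fell by 0.63 in the authors' deposited table, with input RNA of 24.9, 27.0 and 23.6 FPKM in Fvalkbh10b, against 6.02, 5.89 and 6.62 FPKM in WT.

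Of 114 splicing factor genes with a peak, 43 (37.7%) held one called higher and 13 (11.4%) one called lower, against 24.0% and 11.4% of all genes. Their median input was 15.9 FPKM and their median difference 0.09. Splicing factor 3A subunit 2 (FvH4_6g16880), of the U2 complex, stood at 3.79 in Fvalkbh10b and 3.06 in WT and rose by 0.78 in the authors' deposited table. Of 149 chaperone genes, 45 (30.2%) held one called higher and 12 (8.05%) one called lower (median 0.11, median input 10.3 FPKM). Of 504 ubiquitin ligase genes, 121 (24.0%) held one called higher and 33 one called lower (median 0.07, median input 6.32 FPKM). Of 806 genes described as kinases, 189 (23.4%) held one called higher and 90 one called lower (median 0.08), and of 313 transporter genes 75 (24.0%) and 27 (median 0.11). The shares called higher for ligases, kinases and transporters lay at that of all genes. Those called lower were 6.55%, 11.2% and 8.63% in this order, against 11.4% of all genes.

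**Figure D5:**
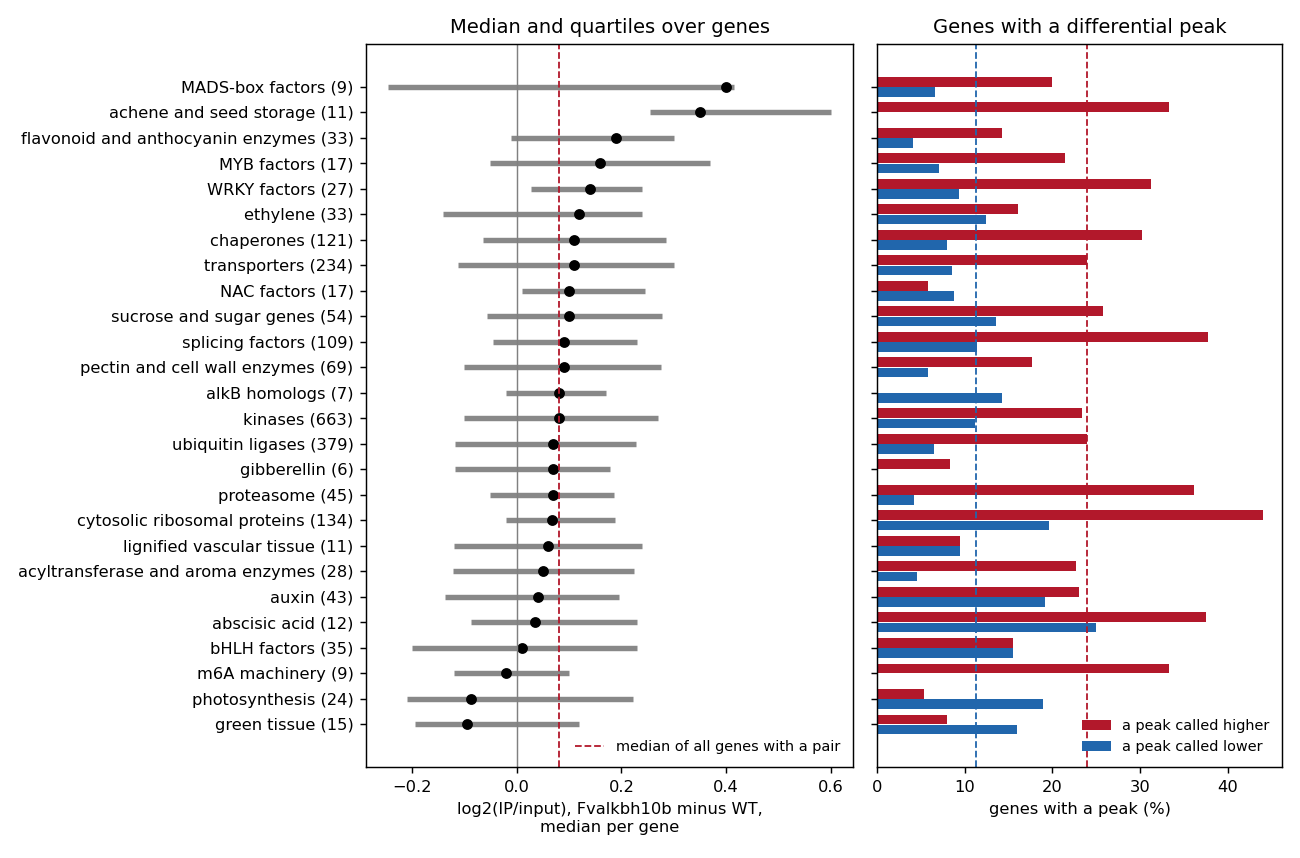
Left, for each gene list the median (point) and quartiles (bar) over genes of the log2(IP/input) difference, Fvalkbh10b minus WT, with the number of genes with a pair in brackets; the dashed line marks the median of all genes, 0.08. Right, the percent of genes with a peak that hold one called higher (red) or lower (blue), with dashed lines at 24.0% and 11.4% for all genes; photosynthesis and green tissue lie lowest on the left.

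Among the 8 largest rises with a described protein and at least 1 FPKM of input in each genotype, the 3' UTR peak of a proline-rich protein HaeIII subfamily 1-like gene (FvH4_7g13500; Fvb7, 12109027 to 12109326 in Fvalkbh10b, plus strand) stood at 7.54 in Fvalkbh10b and 3.24 in WT. It rose by 4.20 in the authors' deposited table (adjusted p 0.01), and its input RNA was 261, 270 and 274 FPKM in Fvalkbh10b, against 214, 231 and 233 FPKM in WT. An upstream 3' UTR peak of the same gene moved little, at 2.45 in Fvalkbh10b and 2.27 in WT. A peak of an RKP-like ubiquitin ligase gene (FvH4_7g04730) stood at 4.36 in Fvalkbh10b, where its class is 3' UTR, and 2.37 in WT, where it is coding exon, and rose by 3.12 in the authors' deposited table. ENHANCED DISEASE RESISTANCE 2-like (FvH4_7g03330), whose Arabidopsis namesake limits defence responses, stood at 4.83 in Fvalkbh10b and 2.45 in WT and rose by 2.63 in the authors' deposited table. A pentatricopeptide repeat gene (FvH4_2g06720) stood at 3.52 in Fvalkbh10b and 1.59 in WT and rose by 2.72 in the authors' deposited table.

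In 2 of these 8 the pair difference had the opposite sign. The largest of the 8, a rise by 4.84 for 6-phosphofructokinase 4 (FvH4_7g26950) in the authors' deposited table, belongs to a peak of 1362 bp. Its Fvalkbh10b partner is 375 bp long, and the pair stood at 3.41 in Fvalkbh10b and 3.53 in WT. Calcium-dependent protein kinase 1-like (FvH4_7g05490) rose by 2.77 in the authors' deposited table and stood at 3.21 in Fvalkbh10b and 3.70 in WT. This kinase gene held 2 peaks called higher and 2 called lower.

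Among the largest falls, the peak of a DRIP2-like ubiquitin ligase gene (FvH4_2g22360; Fvb2, 18337829 to 18338053, minus strand) has the same bounds in all 3 tables, at 5.17 in Fvalkbh10b and 8.60 in WT. It fell by 3.43 in the authors' deposited table (adjusted p 0.04), and its input RNA was 2.15, 1.45 and 1.68 FPKM in Fvalkbh10b, against 2.19, 1.32 and 1.72 FPKM in WT, so the input groups overlapped. LOB domain-containing protein 21 (FvH4_7g24800), a plant transcription factor, had a 3' UTR peak at 1.04 in Fvalkbh10b and 3.0 in WT, which fell by 2.31 in the authors' deposited table. A second 3' UTR peak of that gene rose by 0.30 in the authors' deposited table. Cytochrome P450 711A1 (FvH4_2g31660), an enzyme of strigolactone synthesis in Arabidopsis, had a coding exon peak at 1.43 in Fvalkbh10b and 3.44 in WT, which fell by 2.14 in the authors' deposited table. The input level was 27.9, 27.5 and 28.0 FPKM in Fvalkbh10b, against 1.41, 1.76 and 1.34 FPKM in WT. For pyruvate kinase isozyme G (FvH4_5g21480), a fall by 3.69 in the authors' deposited table stood beside a pair difference of 1.44.

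Among genes chosen by the same conditions within coding exons, the spindle protein gene TPX2 (FvH4_5g28561) had a coding exon peak of 1630 bp with the same bounds in both lists, at 4.53 in Fvalkbh10b and 2.52 in WT, and rose by 2.02 in the authors' deposited table. Input RNA of the gene was 8.73, 7.22 and 11.3 FPKM in Fvalkbh10b, against 10.4, 11.1 and 7.50 FPKM in WT, with overlapping groups (limma adjusted p = 0.676). Scarecrow-like protein 30 (FvH4_3g36680) stood at 2.97 in Fvalkbh10b and 1.30 in WT. Importin-5 (FvH4_1g21410), a carrier into the nucleus, stood at 1.25 in Fvalkbh10b and 2.86 in WT and fell by 1.58 in the authors' deposited table. In the 5' UTR, calcium-transporting ATPase 12 (FvH4_2g22900), a calcium pump, stood at 2.60 in Fvalkbh10b and 0.74 in WT and rose by 2.58 in the authors' deposited table. D-glycerate 3-kinase (FvH4_6g30840), the last enzyme of photorespiration, stood at 2.84 in Fvalkbh10b and 1.05 in WT and rose by 2.12 in the authors' deposited table. OBERON 2 (FvH4_4g16310), which in Arabidopsis acts in meristems, had a 5' UTR peak at 1.89 in Fvalkbh10b and 3.31 in WT and fell by 1.54 in the authors' deposited table.

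Changes in opposite directions within 1 gene were widest in KNAT6-like (FvH4_5g05530), a knotted-type homeobox gene. In the authors' deposited table its 5' UTR peak, listed in WT alone, fell by 3.85, and its 3' UTR peak rose by 1.81. The 3' UTR peak stood at 3.93 in Fvalkbh10b, where it covers WT peaks at 2.67 and 1.57. Input libraries gave 11.4, 11.7 and 11.4 FPKM in Fvalkbh10b, against 101, 103 and 90.6 FPKM in WT. ATHB-15 (FvH4_6g32240), a homeobox-leucine zipper gene of vascular development in Arabidopsis, showed the same arrangement, with changes of -3.58 in the 5' UTR and 0.83 in the 3' UTR in the authors' deposited table. The opposite arrangement, a 5' UTR rise by 3.25 beside 3' UTR falls by 0.61 and 0.65 in the authors' deposited table, was seen in the helicase gene SUV3L (FvH4_7g07700).

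Of 295 GO terms with at least 30 genes with a pair, photosynthesis had the lowest median difference, at -0.15 over 41 genes (12 above and 28 below 0). Chloroplast inner membrane came next, at -0.08 over 55 genes. A peak was called lower in 17 of its 61 genes with a peak and higher in 11, against 11.4% and 24.0% of all genes. Transport by vesicles from the endoplasmic reticulum to the Golgi (-0.03, 39 genes) and SNAP receptor activity (-0.03, 31 genes) followed. The highest medians were those of anchored component of membrane (0.27, 30 genes), hydrolase activity on ester bonds (0.22, 34 genes), response to hydrogen peroxide (0.21, 33 genes) and proteolysis in protein catabolism (0.20, 45 genes). In the last of these, a peak was called higher in 24 of 57 genes with a peak and lower in 4, against 24.0% and 11.4% of all genes. Among 75 KEGG pathways of that size, Photosynthesis had the lowest median (-0.07, 30 genes), with 13 genes above and 17 below 0. Here a peak was called higher in 8 of 41 genes with a peak (19.5%) and lower in 5 (12.2%), against 24.0% and 11.4% of all genes. The photosynthesis list by gene descriptions had 2 (5.4%) and 7 (18.9%) of 37. Phenylalanine metabolism was highest (0.19, 36 genes), followed by Ether lipid metabolism (0.17, 40 genes) and Galactose metabolism (0.15, 64 genes).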

How the data were processed

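Per the labels' protocols, mRNA of fruit was fragmented, part of it was precipitated with an anti-m6A antibody, and IP and input libraries were sequenced from both ends. FastQC, HISAT2 and StringTie are named in the submitters' processing notes without version. The sources used here give no genome build, annotation, peak caller or test for differential peaks. The authors deposited log2 ratios of IP over input for 1 peak list per genotype, log2 changes between genotypes, p-values rounded to 2 decimals, and FPKM of each input library. Peak starts count from 0 (3704 WT peaks start 1 base before their gene and 0 at it) and were raised by 1.

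Peaks were paired at an overlap of at least 1 bp. Authors' adjusted p under 0.05 counts as called. The input comparison used log2(FPKM + 1) in limma 3.58.1 (R 4.3.3), a mean-variance trend, genotype as the only term, a mean of at least 1 FPKM over 6 libraries and Benjamini-Hochberg adjustment; on this scale the change of low genes is understated. No read numbers were recovered from the FPKM, so no count model was used. Both steps were tested on simulated data. 0 columns of per-sample values were left unmapped.

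The members, the 26 gene lists (word patterns on gene descriptions; those for ethylene, aroma and m6A machinery were corrected after the matching descriptions were seen) and the named genes were chosen with earlier results of these data known. By rule, the 8 largest rises and falls with a described protein and input of at least 1 FPKM in each genotype were taken, the 3 largest per class and direction, up to 3 per list, the 5 genes with the widest opposite changes, GO and KEGG terms with at least 30 genes, the m6A machinery, FvH4_2g24110 and FvH4_4g23530; the text gives a selection. Other list members were named after their values were seen: ethylene receptor 2, NCED1, SRK2I, PYL8, FvH4_2g14100, ABSCISIC ACID-INSENSITIVE 5-like protein 5, CMB1-like, SEPALLATA 1, alkB homolog 8, legumin B-like and FvH4_1g13730. Sequences were not analysed here, since no genome of this build was given.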

Additional observations from a re-analysis of the deposited data

How the results depend on the processing

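Every class median of the pair differences stayed above 0 under each alternative run, and called peaks in the authors' deposited table stayed more often higher than lower. None of these runs rescaled IP over input between the genotypes, so they cannot show whether the small shift rests on scaling. The part of scaling in it was not tested. The balance of input calls did not keep its direction. Over all pairs the median difference was 0.06 with identical bounds and 0.07 with a log2 enrichment of at least 1 in both lists; the percent higher was 60.2 with that enrichment, 62.6 in genes with at least 1 FPKM in each genotype and 62.4 with 1 value per gene. In the 3' UTR the median was 0.04 with identical bounds and 56.1% were higher by the class of the WT peak alone. In coding exons the median was 0.10 with identical bounds, 0.11 with the stricter enrichment and 0.15 by the WT class, and the percent higher was 69.6, 65.2 and 69.2 under these and 70.2 in genes with at least 1 FPKM. In the 5' UTR 76.9% were higher with identical bounds. An overlap of at least 50% of the shorter peak and 1 pair per peak moved none of these values by more than the counting error. In the authors' deposited table, an adjusted p under 0.01 left 2616 peaks higher and 962 lower, and a change of at least 2-fold left 710 and 449; both are fewer by construction. Input genes called by limma were 4800 higher and 5011 lower after rescaling to one median and 4869 and 4625 with quantile normalization, so that balance rests on the scaling; the cause was not tested. Leaving out each replicate gave 6995 to 7151 higher and 2789 to 2880 lower. Same-numbered libraries did not deviate together (correlations of 0.0351, -0.0313 and 0.0287); with a replicate block 7469 were higher and 2954 lower. A pseudocount of 0.1 gave 7440 and 2956, and no filter 8616 and 3275. The input changes of FvH4_4g23530 (-2.09 to -1.78) and FvH4_2g24110 (-2.81 to -2.48) passed under all 11 alternatives. Enrichments pool 3 replicates per genotype, so their replicate error is unknown.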
